A study of Solanum lycopersicum with 36 samples.

Results

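The N response of *sdg33* shoots was taken as the difference between the 3 +N and the 3 -N shoot libraries of the *sdg33* line, 6 of the 36 libraries in the series, over the 35872 rows of the shoot table (35768 gene models and 104 miRNA loci). The members are the libraries that carry these labels, and no measured value was used to choose them. The tomato line *sdg33* carries a CRISPR edit of SDG33, a histone lysine methyltransferase gene, and 1 edited line was used. It was set against *sdg34*, 1 line edited in the related gene SDG34, and against the unedited wild type (WT), all in the cultivar Castlemart II. Plants of every group were grown hydroponically for 2 weeks with N, starved of N for 2 days, and then moved for 5 h into medium with N (+N) or kept without it (-N). The +N medium held 2.8 mM nitrate and 0.2 mM ammonium. In the -N medium these salts were replaced partly by sulfates, which added 1.4 mM sulfate over the +N medium. Each library pooled 3 plants of a group, whole shoots and roots were sequenced separately, and each of the 12 groups of genotype, N supply and organ had 3 libraries.

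Plants take up nitrate through transporters of the NRT1 and NRT2 families and reduce it first to nitrite with nitrate reductase and then to ammonium with nitrite reductase. Resupply of nitrate to starved plants is known to induce these genes within hours, together with genes for reductant supply and for cytokinin signalling, which reports N status between root and shoot. Sulfate is reduced on a parallel route, in which adenylyl-sulfate reductase (APS reductase) turns activated sulfate into sulfite for the synthesis of cysteine. SDG33 and SDG34 are tomato relatives of Arabidopsis SDG8, an enzyme that methylates histone H3 lysine 36 over transcribed genes.

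The values are normalized counts, which had been scaled so that all 36 libraries share the same set of values and sum to 19667069. The sequencing depth of each single library is therefore unknown, and the paper gives only an average over libraries. In the *sdg33* shoots the Pearson correlation between replicate libraries lay between 0.969 and 0.983 across genes, and the median SD of a gene was 0.232 under +N and 0.167 under -N on the log2 scale. The lowest correlation among the shoot groups, 0.944, and the widest median SD, 0.32, belonged to the WT -N libraries. Of the 6 photosystem and light-harvesting genes used to check the organ, 5 had a lowest *sdg33* shoot value that was 9.41 to 3825 times their highest *sdg33* root value, and Solyc11g008480.2 had at least 238 normalized counts in shoots and was listed at 0 in roots. SDG33 (Solyc04g057880.3) had 252, 243 and 284 normalized counts in *sdg33* +N shoots and 136, 184 and 208 in *sdg33* -N shoots, so the edited gene was still transcribed; the transcript level does not check the edit. Its log2 difference of 0.58 (SE 0.18, adjusted p = 0.0222, limma) lost significance without +N library 3 or -N library 1, with left-out values from 0.40 to 0.71.

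Of the 21031 genes tested in the *sdg33* shoots, 2678 (12.7%) rose and 2910 (13.8%) fell under +N relative to -N (limma on log2 of the value plus 1, Benjamini-Hochberg adjusted p below 0.05). Changes of at least 1 on the log2 scale numbered 881 up (4.19%) and 620 down (2.95%), and the median absolute log2 difference of the called genes was 0.722. The +N and -N libraries did not overlap for 5457 of the 5588 called genes (26.6% of those tested); over all genes tested they did not overlap for 44.2%. Of the called genes, 1713 of those that rose (64.0%) and 1532 of those that fell (52.6%) were called with each of the 6 libraries left out in turn. In whole shoots, fewer cells of a type and less RNA per cell cannot be told apart.

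**Figure D1:**
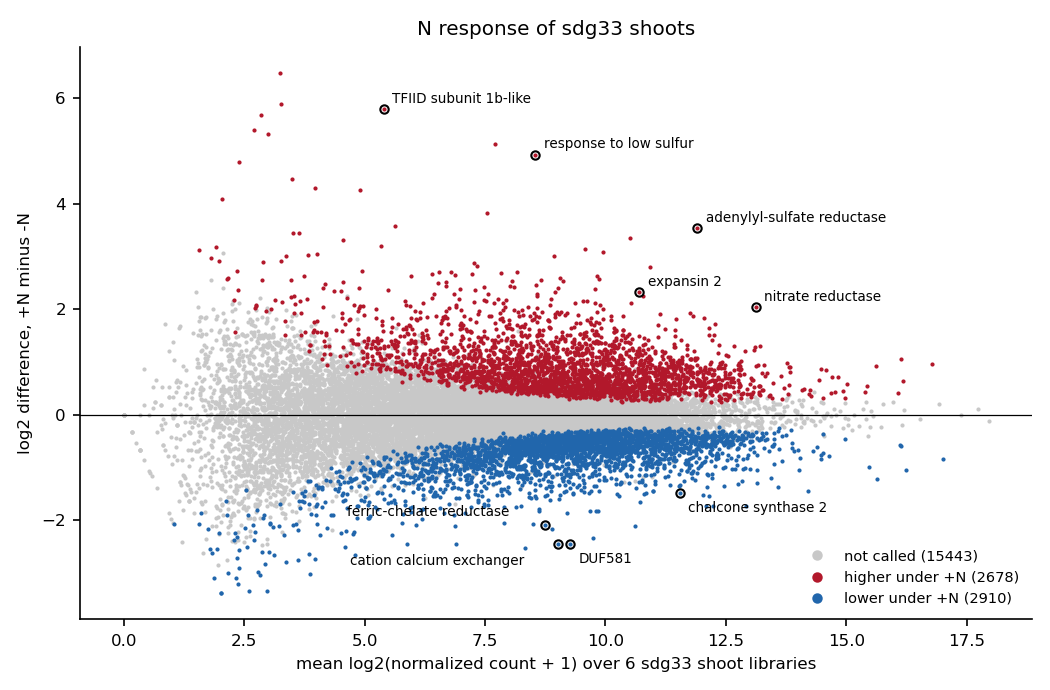
Each point is 1 of 21031 genes, with its mean log2(normalized count + 1) over the 6 *sdg33* shoot libraries on the x axis and its log2 difference, +N minus -N, on the y axis; red genes rose (2678), blue genes fell (2910) and grey genes were not called. The circled sulfur and TFIID-like genes lie above 3, whereas no circled gene lies below -3.

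The nitrate reduction genes rose. Nitrate reductase (Solyc11g013810.2) had 19322, 17744 and 17510 normalized counts in *sdg33* +N shoots, against 4290, 4780 and 4156 in *sdg33* -N shoots. The groups stood well apart, with every +N library above every -N library, and the log2 difference was 2.05 (SE 0.228, adjusted p = 2.62e-06, limma), or 4.13-fold between means. Nitrite reductase NiR (Solyc10g050890.2), the next enzyme of the route, had 321, 385 and 612 normalized counts under +N, against 133, 210 and 165 under -N, a log2 difference of 1.34 (SE 0.234, adjusted p = 0.000294, limma). Non-symbiotic hemoglobin 1 (Solyc07g008240.3), a class of proteins that turns nitric oxide back into nitrate, had 234, 251 and 380 normalized counts under +N, against 49, 83 and 18 under -N. It rose by 2.71 on the log2 scale (adjusted p = 0.000126, limma).

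The calls of the transporters were lost when some single libraries were left out, although their directions held. This gene list and those below were chosen with earlier results of these data known, so their shares are descriptions and not tests. They draw mostly on gene models that the study describes. Of the 1700 such genes tested, 8.59% rose and 12.2% fell. Of the 8 genes in the list of nitrate uptake and reduction, 4 rose (50.0%, beside 12.7% of all genes tested) and 1 fell (12.5%, near the 13.8% of all genes). Only the 2 reductase genes were called with each library left out in turn. The nitrate transporter NRT (Solyc08g007430.2) had 66, 84 and 78 normalized counts in +N shoots, against 38, 26 and 30 in -N shoots, without overlap. Its log2 difference was 1.26 (SE 0.42, adjusted p = 0.0316, limma), with an adjusted p of up to 0.101 and a log2 difference of 1.14 to 1.41 when a library was left out, the call being lost without +N library 2 or 3 or -N library 2 or 3. The putative high affinity nitrate transporter 2 (Solyc06g074990.2) had 88, 40 and 31 normalized counts under +N, against 18, 19 and 6 under -N. Its log2 difference of 1.82 (adjusted p = 0.028, limma) was as low as 1.33 when a library was left out and lost its call without +N library 1 or 2 or -N library 3. NRT1.1 (Solyc08g078950.3), which in Arabidopsis both carries and senses nitrate, moved the other way. It had 4876, 3796 and 3746 normalized counts in +N shoots, against 6222, 5398 and 6219 in -N shoots, a log2 difference of -0.53 (adjusted p = 0.033, limma). That call was lost without +N library 2 or 3 or -N library 1 or 3, with values from -0.65 to -0.46. The remaining 3 members were not called: the high affinity nitrate transporter Solyc02g067790.3 had 93, 74 and 74 against 85, 84 and 60 normalized counts, and the other 2, Solyc06g075510.3 and Solyc06g075500.3, are in the list only through an Arabidopsis homolog that excretes nitrate.

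Sulfate reduction genes rose as well in *sdg33* shoots. The adenylyl-sulfate reductase gene Solyc02g080640.3 had 11890, 15713 and 12094 normalized counts in *sdg33* +N shoots, against 1236, 1264 and 922 in *sdg33* -N shoots. The 2 groups stood far apart, and the log2 difference was 3.54 (SE 0.16, adjusted p = 9.93e-11, limma). The 5'-adenylylsulfate reductase Solyc02g032860.3 had 1963, 2732 and 2141 normalized counts under +N, against 292, 253 and 226 under -N (log2 difference 3.14, SE 0.18, adjusted p = 2.6e-09, limma). The third copy, Solyc03g031620.3, had 1052, 1717 and 1460 normalized counts under +N, against 187, 170 and 154 under -N (log2 difference 3.02, SE 0.173). All 3 copies thus rose by between 8.28 and 11.6 times in group means.

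A putative response to low sulfur protein (Solyc03g096770.1), of a small family known in Arabidopsis for its induction by sulfur shortage, had 1894, 2900 and 1582 normalized counts in +N shoots, against 63, 72 and 65 in -N shoots. It rose by 4.93 on the log2 scale (SE 0.297, adjusted p = 3.07e-09, limma). Solyc03g096760.1, an undescribed gene with the preceding ID, had 915, 1694 and 1210 normalized counts under +N, against 38, 50 and 21 under -N, a log2 difference of 5.13 (SE 0.32). Neighbouring genes of one kind may share reads, and how the counting treated such reads is not given in the sources used here. Among the sulfur genes, the sulfate transporter Solyc09g082550.3 fell, with 18, 7 and 34 normalized counts under +N, against 117, 41 and 61 under -N (log2 difference -1.95, adjusted p = 0.0109, limma), a call lost without +N library 2 or -N library 1, with left-out values from -2.45 to -1.39. The second low sulfur gene, Solyc06g072990.1, had 9, 26 and 14 against 4, 2 and 3 normalized counts and was not called, and the transporter Solyc12g056920.2 had 94, 70 and 70 against 66, 72 and 63. The list of 7 tested sulfur genes was assembled after their values were seen. In it, 4 rose (57.1%, beside 12.7% of all genes tested), each with every library left out in turn. A further 1 fell (14.3%, near the 13.8% of all genes). The median log2 difference of the list was 3.02, beside -0.047 over all genes tested. Because the -N medium held 1.4 mM more sulfate, N and sulfate supply cannot be told apart in these differences.

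**Figure D2:**
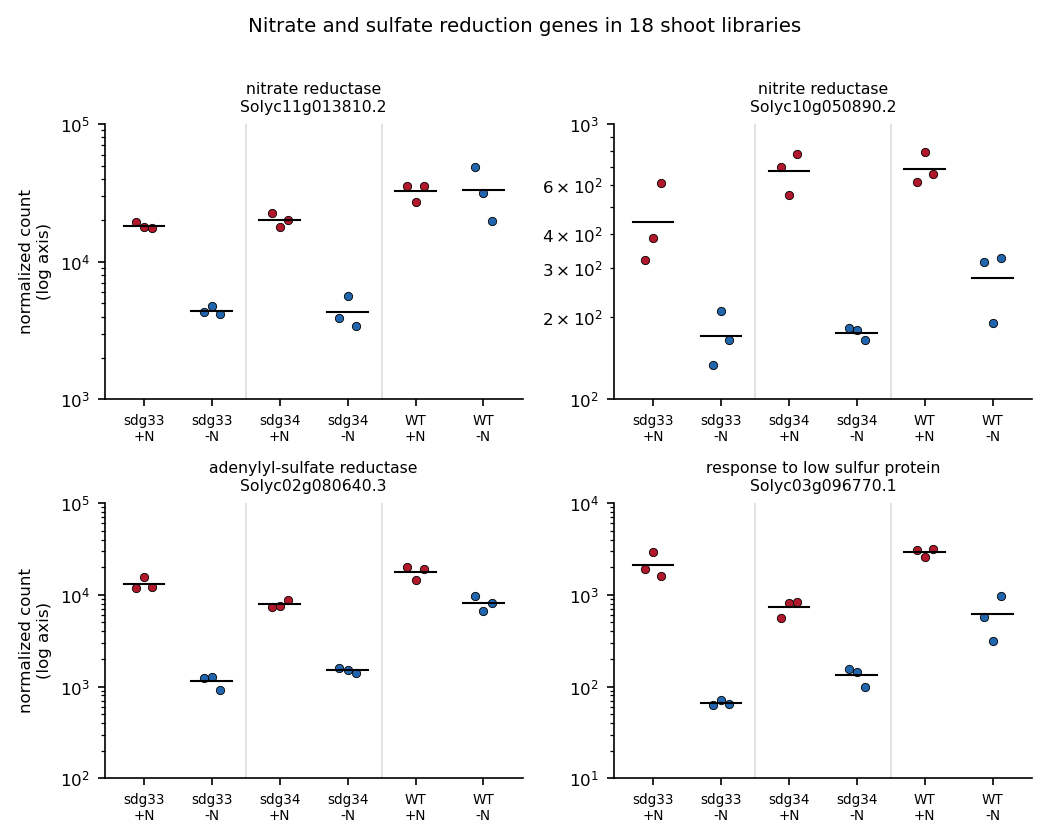
Normalized counts (log axis) of nitrate reductase, nitrite reductase, adenylyl-sulfate reductase and the response to low sulfur protein in the 18 shoot libraries; points are libraries, red under +N and blue under -N, and lines are the means of 3. In *sdg33* every +N point lies above every -N point for all 4 genes, whereas in WT nitrate reductase overlaps between +N (27322 to 35724) and -N (19773 to 48874).

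Outside these pathways, other genes with a mean of at least 100 normalized counts under +N and no overlap between +N and -N also rose. The TFIID subunit 1b-like gene Solyc01g108710.3, annotated after a subunit of the general transcription factor that binds core promoters, had 214, 416 and 340 normalized counts under +N, against 2, 14 and 3 under -N (log2 difference 5.79, SE 0.55, adjusted p = 4.96e-07, limma). The adjacent Solyc01g108700.3 had 104, 191 and 112 against 10, 5 and 4 (log2 difference 4.25); since both carry the same description, reads of one could have been counted for the other. A DUF506 family gene (Solyc02g078150.3) had 438, 706 and 1122 normalized counts under +N, against 44, 102 and 26 under -N, a log2 difference of 3.81 (SE 0.697). The undescribed Solyc02g063410.3 had 139, 192 and 188 against 8, 21 and 14 (adjusted p = 1.34e-06, limma). The MAP kinase kinase kinase 11 gene Solyc01g111880.3, from a family of phosphorylation cascade enzymes, had 190, 502 and 804 normalized counts under +N, against 66, 80 and 40 under -N (log2 difference 2.81, SE 0.465).

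Glutaredoxins, small thiol enzymes that reduce disulfides and of which one plant-specific class is induced by nitrate in Arabidopsis, were often called. Of 11 tested, 7 rose, 4 were not called and none fell, against 12.7% and 13.8% of all genes tested, and 5 of the 7 were called with every library left out in turn. Their median log2 difference was 2.71. In the cluster with neighbouring IDs, Solyc04g011830.1 had 39, 43 and 41 normalized counts in +N shoots and was listed at 0 in all 3 -N libraries. Solyc04g011840.1 had 36, 66 and 50 under +N, against 0, 1 and 0 under -N. Solyc04g011850.1 had 10, 34 and 55 under +N and was listed at 0 under -N, which left it below the filter on low values without any one +N library. It thus passed that filter only through the *sdg33* +N libraries where it was high, and its call adds no support to the count of 7. The neighbours in this cluster carry like descriptions and the counting could have split reads between them, so that their separate values are uncertain. Away from the cluster, Solyc06g054570.1 had 244, 269 and 201 normalized counts under +N, against 24, 54 and 34 under -N (log2 difference 2.71, SE 0.598, adjusted p = 0.0022, limma).

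Among 8 tested cytokinin genes and response regulators, 4 rose (50.0%, beside 12.7% of all genes tested) and none fell, although only 1 of the 4 was called with every library left out. That gene, the two-component response regulator Solyc05g009720.3, a class of cytokinin output genes, had 612, 599 and 500 normalized counts in +N shoots, against 150, 196 and 123 in -N shoots (log2 difference 1.88, SE 0.233, adjusted p = 8.63e-06, limma). LOB domain genes encode plant transcription factors that include known nitrate-responsive members in Arabidopsis. Of 8 tested in a list assembled after their values were seen, 2 rose, beside 12.7% of all genes, both with every library left out. Solyc02g092550.3 had 2036, 2866 and 2048 normalized counts under +N, against 424, 525 and 252 under -N (log2 difference 2.58, SE 0.272), and Solyc01g107190.3 had 1986, 2419 and 1709 against 406, 481 and 295 (log2 difference 2.38, SE 0.253). The other 6 LOB domain genes were not called and had at most 300 normalized counts in any *sdg33* shoot library.

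Growth-related genes were mixed. Expansin 2 (Solyc06g049050.3), a protein that loosens cell walls, had 3794, 4176 and 3284 normalized counts in +N shoots, against 956, 804 and 534 in -N shoots, a log2 difference of 2.33 (SE 0.198, adjusted p = 1.5e-07, limma). It was the only 1 of 22 tested cell wall genes that rose (4.55%, beside 12.7% of all genes and 8.59% of described genes). A further 4 fell (18.2%, beside 13.8% of all genes and 12.2% of described genes). Among those that fell, a cellulose synthase-like gene (Solyc07g043395.1) had 1298, 1236 and 1153 normalized counts under +N, against 2795, 3748 and 3542 under -N (log2 difference -1.44). ARGOS (Solyc12g096570.1), an auxin-inducible gene that increases organ size in Arabidopsis, had 233, 168 and 148 normalized counts under +N, against 42, 45 and 29 under -N (log2 difference 2.21, SE 0.354). An auxin-responsive GH3 family gene, of enzymes that conjugate auxin to amino acids, rose as well (Solyc08g068490.3: 572, 685 and 704 normalized counts under +N, against 336, 270 and 289 under -N). In contrast, the auxin repressed/dormancy associated gene Solyc02g077880.3 had 15186, 12321 and 10914 normalized counts under +N, against 23348, 21550 and 21854 under -N (log2 difference -0.81, SE 0.15). These 3 belong to a list of 19 tested auxin genes, of which 2 rose (10.5%) and 4 fell (21.1%). Of 20 SAUR genes, a further auxin-responsive family, 1 rose and 1 fell, neither of them with every library left out.

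A cationic amino acid transporter gene (Solyc11g006710.2) was the 1 amino acid gene of 10 tested that rose (10.0%, near the 12.7% of all genes), with 310, 554 and 316 normalized counts in +N shoots, against 102, 92 and 60 in -N shoots (log2 difference 2.18, SE 0.263). Both members of that list that fell lost their calls when single libraries were left out. Of 29 tested RING/U-box genes, of the ubiquitin ligase class, 3 rose (10.3%, near the 12.7% of all genes) and 1 fell. Of the 3, Solyc11g005280.1 had 386, 312 and 440 normalized counts under +N, against 69, 74 and 39 under -N (log2 difference 2.66, SE 0.426), and Solyc10g008400.1 had 358, 340 and 404 against 114, 146 and 59 (log2 difference 1.87, SE 0.434). The third, Solyc11g005310.1, had a log2 difference of 2.57 (SE 0.746), and its call was lost without -N library 1 or 3 and with a pseudocount of 10. Beta-amylase Solyc08g077530.3, a starch-degrading enzyme, had 555, 499 and 658 normalized counts under +N, against 288, 298 and 308 under -N (log2 difference 0.93, SE 0.191).

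Among the genes that fell were many of the phenylpropanoid pathway and its flavonoid branch, which makes pigments and sunscreen compounds. Of 25 tested phenylpropanoid genes 12 fell and none rose, a share of 48.0% beside 13.8% of all genes tested and 12.2% of described genes. Of the 12, 8 were called with every library left out. This list, too, was chosen with earlier results of these data known. Within the flavonoid branch, a list assembled after the values were seen, 10 of 12 tested genes fell (83.3%), with a median log2 difference of -1.08. The branch is part of the pathway, so the 2 shares are not separate results. Both lists had a lowest log2 difference of -1.48 and 8 falling genes called with every library left out. Chalcone synthase 2 (Solyc05g053550.3), the entry enzyme of the branch, had 2102, 2096 and 1300 normalized counts in +N shoots, against 5136, 4248 and 5754 in -N shoots. The 3 +N libraries were all below the 3 -N libraries, and the gene fell by 1.48 on the log2 scale (SE 0.158, adjusted p = 1.62e-06, limma). Chalcone synthase 1 (Solyc09g091510.3) had 685, 630 and 414 normalized counts under +N, against 1648, 1186 and 1816 under -N (log2 difference -1.44).

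The following steps of the branch fell alongside. The chalcone-flavonone isomerase family genes Solyc05g010320.3 and Solyc05g052240.3 had log2 differences of -1.14 and -1.03. Flavanone 3-dioxygenase (Solyc02g083860.3) had 182, 164 and 206 normalized counts under +N, against 452, 427 and 602 under -N (log2 difference -1.41, SE 0.166). Flavonoid 3',5'-hydroxylase (Solyc11g066580.2), which sets the colour of anthocyanins, had 42, 55 and 80 against 142, 158 and 156, and flavonol synthase (Solyc11g013110.2) had 1764, 1466 and 1360 against 3047, 2340 and 3306. The phenylalanine ammonia-lyase genes, which open the general pathway, moved less: 1 of 5 tested fell, with its call resting on single libraries, and Solyc10g086180.2 had 1334, 1511 and 1695 normalized counts under +N, against 1226, 1348 and 1252 under -N, and was not called. The gene of R2R3MYB transcription factor 75 (Solyc10g086250.2), a family that includes known regulators of the flavonoid pathway, had 27, 23 and 36 normalized counts under +N, against 90, 90 and 148 under -N (log2 difference -1.88, SE 0.236).

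Outside the flavonoid branch, genes of several kinds with a mean of at least 100 normalized counts under -N also fell. A senescence-associated DUF581 gene (Solyc08g077480.3) had 300, 289 and 209 normalized counts in +N shoots, against 1474, 1493 and 1360 in -N shoots, a log2 difference of -2.45 (SE 0.152, adjusted p = 4.22e-09, limma). A cation calcium exchanger gene (Solyc07g006370.1), of a family of membrane ion exchangers, had 288, 196 and 188 against 1206, 1324 and 1102 (log2 difference -2.45, SE 0.23). Ferric-chelate reductase (Solyc01g094910.3), which reduces iron before its uptake into cells, had 302, 184 and 160 against 818, 910 and 912 (log2 difference -2.08, SE 0.207). A putative glucan endo-1,3-beta-glucosidase (Solyc10g078510.2) had 87, 46 and 44 against 188, 252 and 304. Phosphate transporter 1 (Solyc09g090070.1), a membrane carrier for phosphate, was the 1 phosphate gene of 7 tested that fell (14.3%, near the 13.8% of all genes), and none rose. It had 2896, 2250 and 2116 normalized counts under +N, against 5409, 4975 and 5074 under -N (log2 difference -1.10, SE 0.172). The undescribed Solyc04g078460.3 fell by 2.52 on the log2 scale, with 117, 141 and 144 against 1006, 648 and 693. In each of these genes all +N libraries were below all -N libraries.

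Among other groups, 12 of 42 glycosyltransferase genes fell (28.6%) and 1 rose (2.38%), beside 13.8% and 12.7% of all genes tested. Of 38 cytochrome P450 genes 9 fell (23.7%) and none rose. In a list assembled after the values were seen, 5 of 9 protein phosphatase 2C genes fell (55.6%). With every library left out in turn, 9, 4 and 2 of these falling genes kept their calls. The phosphatases include known negative regulators of abscisic acid signalling; Solyc06g076400.3 had 611, 588 and 344 normalized counts in +N shoots, against 1028, 912 and 1087 in -N shoots (log2 difference -1.01, SE 0.197). Of 16 light and clock genes 5 fell (31.2%), 3 of them with every library left out, and 1 rose (6.25%). The gene that rose was the CONSTANS-like gene Solyc03g119540.3, with 1866, 1452 and 2276 normalized counts under +N, against 803, 1130 and 883 under -N (log2 difference 0.98, SE 0.172). Of 144 transcription factor genes 15 rose (10.4%) and 17 fell (11.8%), both shares being near those of all genes tested. Heat shock proteins and factors had 2 of 45 higher (4.44%) and 4 lower (8.89%), and defence genes 2 of 28 higher (7.14%) and 3 lower (10.7%). Late embryogenesis and dehydrin genes had none of 26 higher and 5 lower (19.2%), 1 of them called with every library left out. Sugar and trehalose genes had 2 of 15 higher (13.3%) and 2 lower (13.3%), near the shares of all genes. Ethylene genes had 2 of 16 higher (12.5%) and none lower, and gibberellin genes 2 of 11 higher (18.2%) and none lower. Peroxidase genes had none of 12 higher and 2 lower (16.7%). The 12 miRNA loci that passed the filter on low values had no call in either direction. Among 91 plastid-type genes, annotated after chloroplast-encoded genes or their proteins, 2 rose and 1 fell. Apart from the miRNA loci and genes that the study names by ID, the lists draw on 2009 described gene models. The study describes these because it had called them between genotypes in these libraries. Of the 1700 described genes tested, 146 (8.59%) rose and 208 (12.2%) fell.

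**Figure D3:**
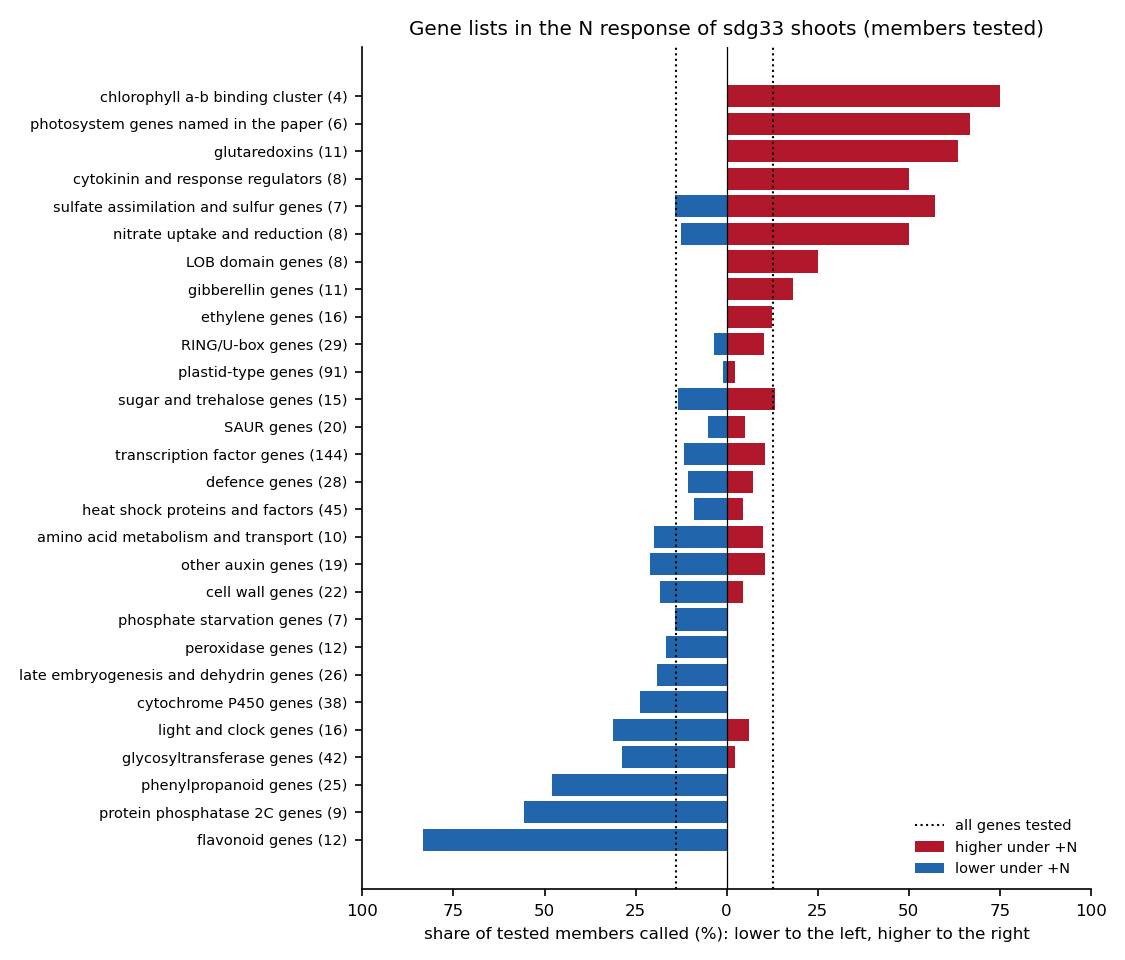
Bars give, for each gene list, the share of members that rose (right, red) and fell (left, blue) under +N in *sdg33* shoots. Numbers of members tested are in parentheses. Dotted lines mark the shares among all 21031 genes, 12.7% and 13.8%. Among the described genes, on which most lists draw, the shares were 8.59% and 12.2%. Lists were chosen with earlier results of these data known. The chlorophyll a-b binding cluster and the photosystem, glutaredoxin and sulfur lists extend furthest to the right and the flavonoid, protein phosphatase 2C and phenylpropanoid lists furthest to the left.

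The 6 genes of photosystems and light-harvesting complexes, which bind chlorophyll or serve the water-splitting side of photosystem II, had log2 differences of 0.81 or less in *sdg33* shoots. Of them, 4 rose (66.7%, beside 12.7% of all genes tested). The PsbP-like gene Solyc01g087040.2 had 6698, 7054 and 5647 normalized counts in *sdg33* +N shoots, against 4567, 4733 and 4122 in *sdg33* -N shoots (log2 difference 0.53, SE 0.133, adjusted p = 0.00591, limma). The light harvesting complex I related gene Solyc06g069730.3 had 13274, 14784 and 14013 against 10542, 9706 and 7650 (log2 difference 0.60, SE 0.109), and the photosystem II subunit gene Solyc11g008480.2 had 500, 530 and 348 against 282, 254 and 238 (log2 difference 0.81, SE 0.168). These 3 were called with every library left out. The fourth, Solyc02g070970.1, had 35724, 37682 and 36307 against 29041, 29958 and 21550, and its log2 difference of 0.46 (adjusted p = 0.0368, limma) lost its call without any one +N library or without -N library 3, with values from 0.31 to 0.55. Solyc01g105050.3 had 29958, 33188 and 29327 against 29327, 30399 and 28517 and Solyc08g067320.2 had 3941, 4670 and 3334 against 3702, 3128 and 2958; neither was called. The median log2 difference of the 6 was 0.494. In the cluster of 4 chlorophyll a-b binding genes to which Solyc02g070970.1 belongs, 3 rose (75.0%) in *sdg33*, none of them with every library left out. Reads could have been split between these neighbours.

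In WT shoots the same genes differed more between +N and -N, which is a description, since the study had named them from these libraries as rising with N in WT and not in the mutants. In WT the PsbP-like gene had 1660, 1404 and 1648 normalized counts under +N, against 204, 182 and 139 under -N, so that its response was more negative in *sdg33* by 2.65 on the log2 scale (log2 difference of responses -2.65, SE 0.204, adjusted p = 2.25e-05, limma). Differences of responses for the 6 genes ran from -2.65 to -1.11; that all of them rose in WT and responded less in *sdg33* follows from how they were chosen. The calls of Solyc01g087040.2, Solyc06g069730.3, Solyc08g067320.2 and Solyc01g105050.3 held with every library left out. That of Solyc02g070970.1 was lost without *sdg33* -N library 1 (adjusted p = 0.0516), and that of Solyc11g008480.2 (-1.22, adjusted p = 0.04) without any one *sdg33* library except +N library 1 or any one WT +N library, at an adjusted p of up to 0.127 and values from -1.33 to -1.03. Under -N the *sdg33* libraries had higher values than the WT libraries in all 6 genes, for example 10542, 9706 and 7650 in *sdg33* against 1844, 1774 and 1818 in WT for Solyc06g069730.3.

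**Figure D4:**
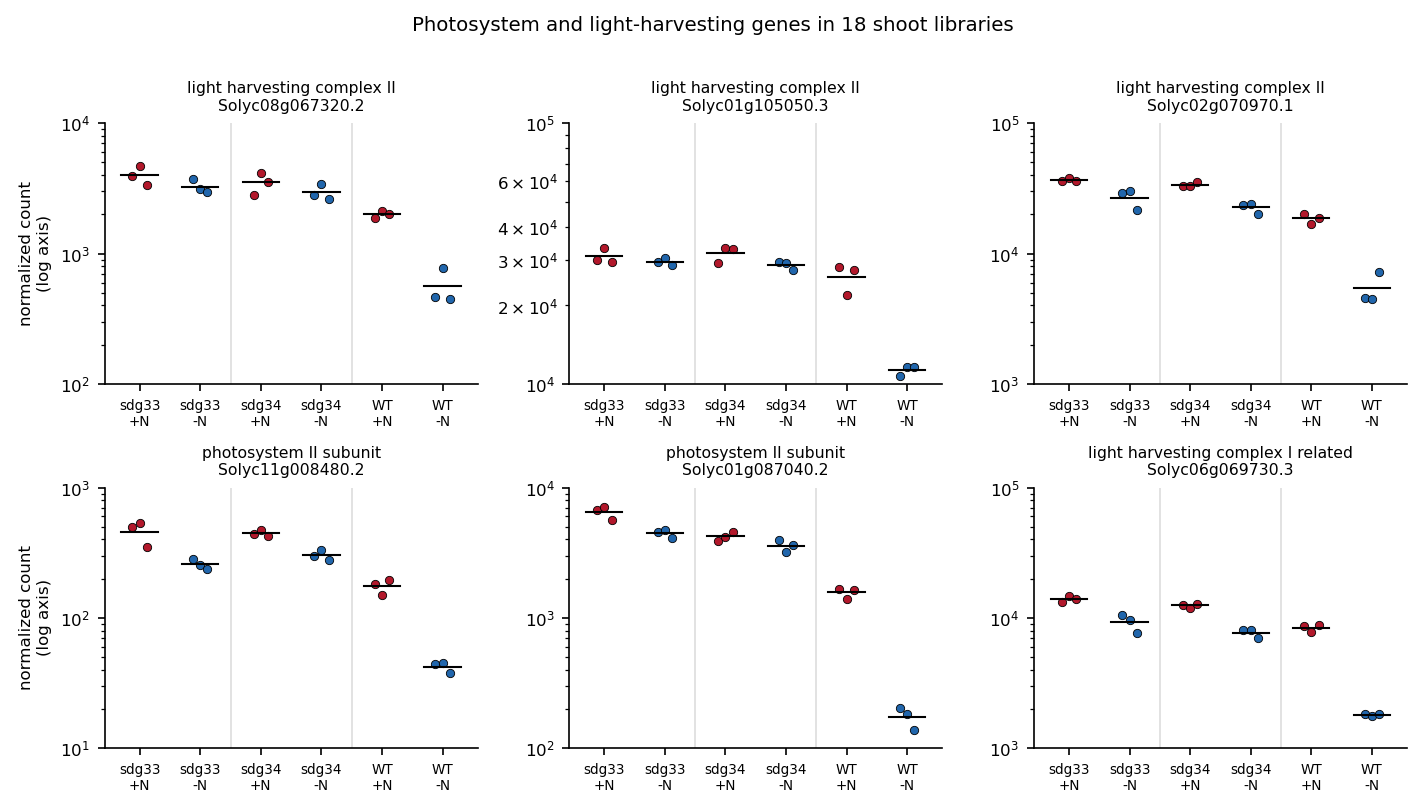
Normalized counts (log axis) of the 6 photosystem and light-harvesting genes in 18 shoot libraries, red under +N and blue under -N, with lines at the means of 3. The WT -N points lie below the WT +N points in every panel, and in *sdg33* the 2 conditions lie closer together than in WT.

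Over all genes, the N responses of *sdg33* and WT shoots were next set side by side to ask which genes respond differently in the mutant. In WT shoots 3146 genes rose and 3249 fell in the same fit, 30.4% of those tested. Of the genes that rose in *sdg33* shoots, 1800 also rose in WT, which is 67.2% of the *sdg33* genes and 57.2% of the WT genes. A further 22 of them (0.822%) fell in WT. Of the genes that fell in *sdg33* shoots, 1342 also fell in WT (46.1% and 41.3%), and 84 (2.89%) rose in WT. The Pearson correlation of the log2 differences was 0.46 across the 21031 genes, which are not independent replicates.

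The difference between the responses was called for 131 genes (0.632%) with a more positive and 282 (1.36%) with a more negative response in *sdg33* than in WT, out of 20713 tested. Of the 131 genes, 66 fell in WT and were not called in *sdg33*, 24 rose in *sdg33* and were not called in WT, and 19 rose in *sdg33* and fell in WT. Of the 282 genes, 96 rose in WT and were not called in *sdg33*, 71 fell in *sdg33* and rose in WT, and 69 fell in *sdg33* and were not called in WT. In a fit of all 18 shoot libraries the counts were 317 and 611. With single libraries left out of the 12, the counts ran from 52 to 266 and from 87 to 554. They moved by over 1.5 times in at least 1 direction without any one of these libraries except *sdg33* +N 1 (115 and 325 genes) and WT -N 2 (107 and 220 genes), and 43 and 70 genes were called in every such fit.

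Nitrate reductase was among the genes called in every such fit. It had 35396, 27322 and 35724 normalized counts in WT +N shoots, against 48874, 31735 and 19773 in WT -N shoots, with overlap, a log2 difference of 0.06 (adjusted p = 0.879, limma) beside 2.05 in *sdg33*. The difference of the responses was 1.99 (SE 0.329, adjusted p = 0.00794, limma), and all 3 *sdg33* -N libraries lay below all 3 WT -N libraries. The nitrite reductase response, by contrast, was 1.34 in *sdg33* and 1.35 in WT, with a difference of -0.01 (SE 0.366).

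The 4 sulfur genes that rose in *sdg33* rose in WT too, and their response was more positive in *sdg33*. For Solyc02g080640.3, WT had 20008, 14439 and 19084 normalized counts under +N and 9706, 6620 and 8230 under -N, a log2 difference of 1.13 against 3.54 in *sdg33*; the difference of the responses was 2.41 (SE 0.25, adjusted p = 0.000266, limma). Solyc02g032860.3 gave a difference of 2.40 (SE 0.284), Solyc03g031620.3 one of 1.78 (SE 0.249) and Solyc03g096770.1 one of 2.54 (SE 0.433), and all 4 calls held with every library left out. Under -N the *sdg33* values were below the WT values in all 4 genes, for example 292, 253 and 226 in *sdg33* against 3693, 2101 and 3417 in WT for Solyc02g032860.3.

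Other described genes were called as well. Light dependent NADH:protochlorophyllide oxidoreductase (Solyc12g013710.2), an enzyme of chlorophyll synthesis, had 21854, 21854 and 22676 normalized counts in *sdg33* +N shoots and 18016, 17632 and 16451 in *sdg33* -N shoots. In WT it had 14560, 11966 and 16249 under +N and 1313, 1477 and 1174 under -N, and its response was more negative in *sdg33* by a log2 difference of -3.08 (SE 0.175, adjusted p = 9.2e-07, limma). A glutaredoxin outside the cluster, Solyc01g067460.2, had 336, 310 and 173 against 196, 288 and 176 in *sdg33* but 24, 46 and 38 against 1, 0 and 0 in WT. Its difference of -4.54 ran from -7.01 with a pseudocount of 0.1 to -1.85 with one of 10. The DUF581 gene Solyc08g077480.3 had 1014, 1380 and 1126 normalized counts in WT +N shoots, against 1496, 1405 and 1783 in WT -N shoots, and its response was more negative in *sdg33* (-2.04, SE 0.224, adjusted p = 0.000358, limma). Beta-amylase Solyc08g077530.3, which rose in *sdg33*, had 1860, 1419 and 2072 normalized counts in WT +N shoots and 3773, 2010 and 2675 in WT -N shoots, and the difference of its responses was 1.56 (SE 0.282, adjusted p = 0.0137, limma).

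**Figure D5:**
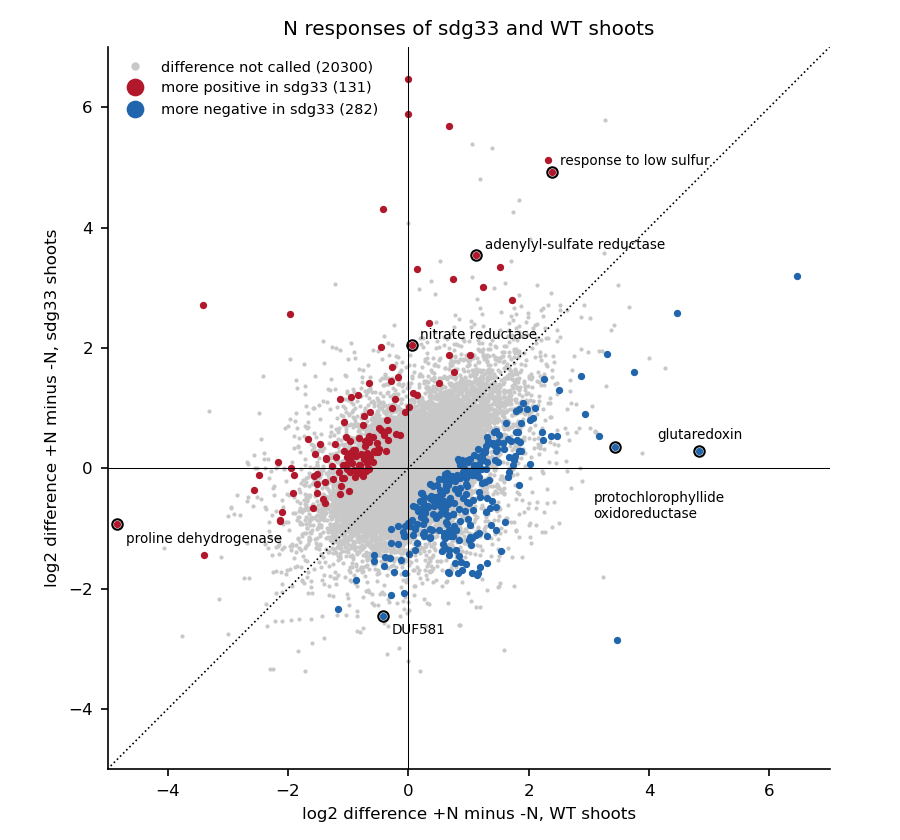
For 20713 genes, the log2 difference +N minus -N in WT shoots (x axis) and in *sdg33* shoots (y axis); red genes had a more positive (131) and blue genes a more negative (282) response in *sdg33*, and the dotted line marks equal responses. Nitrate reductase lies near 0 for WT and near 2.05 for *sdg33*, and the protochlorophyllide oxidoreductase gene near 3.43 for WT and 0.35 for *sdg33*.

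The responses of the 2 mutants differed in fewer genes. In *sdg34* shoots 2343 of 21031 genes tested rose and 2322 fell, 22.2% in both directions together. These calls come from the same fit of 18 libraries as those of *sdg33* and are not independent of them. Of the genes that rose in *sdg33*, 1767 also rose in *sdg34* (66.0% of the *sdg33* genes, 75.4% of the *sdg34* genes) and 5 fell. Of those that fell in *sdg33*, 1524 also fell in *sdg34* (52.4% and 65.6%) and 1 rose. The difference was called for 53 genes (0.259%) with a more positive and 10 (0.0489%) with a more negative response in *sdg33* than in *sdg34*, out of 20468 tested, with 1929 at an unadjusted p below 0.05. In a fit of all 18 shoot libraries these counts were 6 and 3. They ran from 27 to 85 and from 2 to 38 with single libraries left out, 24 and 2 genes being called throughout; the counts of more positive genes that moved by over 1.5 times were 27 without *sdg33* -N library 3, 28 without *sdg34* -N or +N library 1, 29 without *sdg34* +N library 2 and 85 without *sdg33* +N library 3.

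Sulfur genes were again among them. The response to low sulfur gene Solyc03g096770.1 had 552, 816 and 836 normalized counts in *sdg34* +N shoots and 157, 143 and 98 in *sdg34* -N shoots, so that its response was more positive in *sdg33* by 2.46 on the log2 scale (SE 0.314, adjusted p = 0.00269, limma). For the APS reductase Solyc02g032860.3 the difference was 1.46 (SE 0.191, adjusted p = 0.00297, limma). The DUF581 gene Solyc08g077480.3 had 528, 596 and 455 against 1084, 1258 and 1048 in *sdg34*, and its response was more negative in *sdg33* (-1.35, SE 0.201, adjusted p = 0.00661, limma). The calls of Solyc03g096770.1, Solyc02g032860.3 and Solyc08g077480.3 held with every library left out and in the fit of 18 libraries. That of the APS reductase Solyc02g080640.3 (1.14, SE 0.188, adjusted p = 0.0126, limma) did not. It was lost without *sdg34* +N library 1 or -N library 1, and in the fit of 18 libraries (adjusted p = 0.0751, limma). Solyc06g066420.3, a putative oxidative stress 3 gene, had 730, 558 and 466 normalized counts in *sdg33* +N shoots and 304, 270 and 212 in *sdg33* -N shoots, whereas *sdg34* had 86, 95 and 98 under +N and 226, 248 and 281 under -N. Its difference of 2.57 was called in the fit of 12 libraries (adjusted p = 0.000218, limma) but not in that of 18 (adjusted p = 0.381). The RING/U-box gene Solyc10g008400.1 gave 2.81, with adjusted p = 0.00661 in the first fit and 0.105 in the second (limma). Nitrate reductase also rose in *sdg34*, with 22653, 18016 and 20076 normalized counts under +N and 3916, 5608 and 3428 under -N, and the difference of the responses was -0.21 (SE 0.201).

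The shoots of *sdg33* differed from its roots in a large share of genes. The response was more positive in shoots for 2117 genes (9.74%) and more negative for 2405 (11.1%) of 21728 tested. Shoot and root differences had opposite signs in 1099 and 1708 of these. A further 96 and 109 were not tested in the shoot fit and were left out of that count. With single libraries left out, the counts were 1416 to 2498 and 1715 to 2834, and 1192 and 1516 genes were called throughout. Nitrite reductase had 32837, 34712 and 32837 normalized counts in *sdg33* +N roots and 1482, 1520 and 794 in *sdg33* -N roots, a log2 difference of 4.78 beside 1.34 in shoots (difference of responses -3.44, SE 0.372, adjusted p = 0.000102, limma). The transporter NRT Solyc08g007430.2 had 1850, 671 and 1258 against 10, 10 and 5 in roots, and its response was more negative in shoots (difference of responses -5.75, SE 0.489, adjusted p = 1.5e-05, limma). Nitrate reductase had 36556, 40978 and 37498 normalized counts in +N roots, against 5704, 6008 and 4322 in -N roots, a log2 difference of 2.86 beside 2.05 in shoots.

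Of 8 tested cytokinin genes and response regulators 3 had a more negative response in shoots than in roots, as had 5 of 9 LOB domain genes, beside 11.1% of all genes. The LOB domain list was assembled after its values were seen, and it had 8 members tested in the shoot fit and 9 here. Among those called, Solyc02g065150.2 had only 1, 4 and 4 normalized counts in +N shoots and 9, 12 and 12 in -N shoots. It was not called in the shoots (adjusted p = 0.103, limma). Solyc05g009720.3 had 860, 934 and 1098 normalized counts in +N roots and 68, 88 and 63 in -N roots (difference of responses, shoot minus root, -1.83, SE 0.255), and Solyc01g107190.3 had 2270, 2387 and 2384 and 76, 78 and 50 (-2.73, SE 0.277). For Solyc02g092550.3, the LOB domain gene with the larger rise in shoots, the difference of -0.73 was not called (adjusted p = 0.143, limma). Phosphate transporter 1 (Solyc09g090070.1), which fell in shoots, had 20008, 20277 and 21314 normalized counts in +N roots and 10542, 9464 and 9362 in -N roots, the difference of responses being -2.17 (SE 0.151, adjusted p = 3.48e-06, limma). Of the 7 sulfur genes, in a list also assembled after the values were seen, 5 had a more positive response in shoots than in roots, beside 9.74% of all genes. The low sulfur gene Solyc03g096770.1 had 18, 14 and 20 in +N roots and 48, 42 and 52 in -N roots, a log2 difference of -1.41 beside 4.93 in shoots, and the difference of responses was 6.33 (SE 0.314, adjusted p = 7.51e-07, limma). The APS reductase Solyc02g080640.3 had 2190, 2414 and 2006 in +N roots and 632, 704 and 942 in -N roots, with a difference of 1.99 (SE 0.231). ARGOS, which rose in shoots, had 82, 94 and 96 normalized counts in +N roots and 111, 102 and 165 in -N roots (difference of responses 2.65, SE 0.343), and expansin 2 had 430, 875 and 428 and 336, 338 and 300 (1.58, SE 0.361).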

How the data were processed

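RNA was extracted from shoots and roots 5 h after transfer, and libraries were sequenced with paired ends. The authors aligned the reads to the tomato genome using BBmap, obtained gene counts from featureCounts and used DESeq2 for testing; versions are not given in the sources used here. The deposited values, one table per organ with 35872 rows, are whole-number scores: gene counts after full-quantile normalization over all 36 libraries, as the identical sets of values in all libraries show (highest value 264554). They are called normalized counts and are not raw counts, so that no count model was applied. The depth and counting error of each library are unknown.

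After adding a pseudocount of 1, log2 values were fitted in limma 3.58.1 (R 4.3.3, trended prior variance) for genes with at least 10 in at least 3 libraries of a fit. The N response came from 1 fit of the 18 shoot libraries. Differences of responses came from fits of 12 libraries each (*sdg33* with WT, with *sdg34*, and both organs of *sdg33*). Adjusted p-values (Benjamini-Hochberg over all genes of a fit) below 0.05 were called. Differences on this scale understate changes of low genes. No exact permutation test is given, since 3 against 3 libraries cannot go below p = 0.1. Replicates pooled separate plants. The fits were run on simulated data with 200 planted genes. The simulated noise was normal with the same spread for a gene in every group. Unequal spread between groups was therefore not checked.

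Genes named were the 6 with the largest change in each direction among called genes without overlap and a group mean of at least 100, the 10 described ones in each direction, those the study names by ID, up to 3 called members per list and direction, members of lists of up to 8 and the 3 most different described genes per direction in each difference of responses; the text gives a part of them. The 25 lists were made by key words on gene descriptions and 4 further lists after values were seen. Members and lists were chosen with earlier results of these data known. Alternatives were other pseudocounts (0.1 and 10), filters, rescaling by median of ratios, a replicate block, other sets of libraries and leaving out each library. Genomic positions and sequences were not used here. All sample columns were mapped.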

Additional observations from a re-analysis of the deposited data

Results flagged for a closer look

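Differences of the N response between groups are given here because a test of the difference itself was called. Between *sdg33* and WT shoots these were 131 genes with a more positive and 282 with a more negative response in *sdg33*, between *sdg33* and *sdg34* shoots 53 and 10, and between *sdg33* shoots and roots 2117 and 2405 (limma, adjusted p below 0.05).

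Against WT, the response was more positive in *sdg33* for nitrate reductase Solyc11g013810.2 (difference of log2 responses 1.99), the APS reductases Solyc02g080640.3 (2.41), Solyc02g032860.3 (2.40) and Solyc03g031620.3 (1.78), and the low sulfur gene Solyc03g096770.1 (2.54) with its neighbour Solyc03g096760.1 (2.82). It was also more positive for proline dehydrogenase Solyc02g089630.3 (3.90), which had 35, 29 and 63 normalized counts in *sdg33* +N shoots and 65, 76 and 94 in *sdg33* -N shoots, beside 17, 4 and 2 in WT +N shoots and 124, 222 and 226 in WT -N shoots. That call was lost without *sdg33* +N library 3 or -N library 1, with values from 3.35 to 4.64. The RING/U-box gene Solyc11g005310.1 (4.54) lost its call without any one of the 12 libraries except *sdg33* -N 2 and WT -N 3, at values from 4.03 to 5.41. It was also lost with no filter on low values and with pseudocounts of 0.1 and 10, where values ran from 2.56 to 6.73 over the other settings.

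It was more negative in *sdg33* than in WT for the glutaredoxin Solyc01g067460.2 (-4.54), the protochlorophyllide oxidoreductase Solyc12g013710.2 (-3.08), the DUF581 gene Solyc08g077480.3 (-2.04) and the photosystem genes, which the study had chosen for this pattern in these libraries, Solyc01g087040.2 (-2.65), Solyc06g069730.3 (-1.61), Solyc08g067320.2 (-1.59), Solyc02g070970.1 (-1.35), Solyc11g008480.2 (-1.22) and Solyc01g105050.3 (-1.11). The undescribed Solyc10g008410.1 (-1.17, adjusted p = 0.0406, limma) had 522, 374 and 280 normalized counts in *sdg33* +N shoots and 1982, 1840 and 1946 in *sdg33* -N shoots, beside 1276, 1101 and 838 in WT +N shoots and 2394, 2450 and 2259 in WT -N shoots. Its call was lost without any one of the libraries except *sdg33* +N 1, WT +N 3 and WT -N 1 and 3, at values from -1.40 to -0.95.

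Between the mutants, the response was more positive in *sdg33* for Solyc03g096770.1 (2.46), Solyc06g066420.3 (2.57) and Solyc10g008400.1 (2.81) and more negative for Solyc08g077480.3 (-1.35). Notabilis (Solyc07g056570.1, -1.24), an enzyme gene of abscisic acid synthesis, had 588, 342 and 422 normalized counts in *sdg33* +N shoots and 544, 632 and 587 in *sdg33* -N shoots, beside 915, 870 and 685 in *sdg34* +N shoots and 440, 498 and 447 in *sdg34* -N shoots. That call was lost without any one library except *sdg33* +N 1 and 3 and *sdg34* +N 3, at values from -1.45 to -1.06. The tetratricopeptide repeat gene Solyc09g064630.3 (-1.01) lost its call without any one library except *sdg33* +N 1, *sdg33* -N 2, *sdg34* +N 3 and *sdg34* -N 2, at values from -1.16 to -0.89.

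Between the organs, the response was more positive in shoots for Solyc03g096770.1 (6.33), the multicystatin gene Solyc00g071180.3 (5.05) and the putative cytochrome P450 gene Solyc01g094130.2 (3.996). The last had 0 or 1 normalized count in every *sdg33* shoot library, beside 7, 6 and 4 in +N roots and 76, 122 and 119 in -N roots. It passed the filter on low values only through the roots and was not tested in the shoot response, so its difference is that of the roots, and the call was lost with a pseudocount of 0.1 (adjusted p = 0.0701, limma). The multicystatin gene was not called in the shoots (log2 difference 0.83, adjusted p = 0.265, limma). In roots it had 86, 17 and 4 normalized counts under +N and 371, 276 and 495 under -N, a log2 difference of -4.22. The response was more negative in shoots for the transporter NRT Solyc08g007430.2 (-5.75), the DUF1442 gene Solyc08g007480.2 (-4.75) and the heat shock factor gene SolycHsfA7 Solyc09g065660.3 (-4.66). These last 2 genes had 2 to 14 and 0 to 7 normalized counts in *sdg33* shoots, where neither was called, and high values only in roots. The DUF1442 gene had 1416, 1335 and 1556 in +N roots and 66, 65 and 68 in -N roots, and the heat shock factor gene had 928, 647 and 632 in +N roots and 38, 121 and 78 in -N roots. The call of the heat shock factor gene was lost with a pseudocount of 0.1 (adjusted p = 0.101, limma).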

How the results depend on the processing

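The depth of each library behind the values is unknown, each group has 3 libraries and *sdg33* is 1 line. Requiring an absolute log2 difference of at least 1 left 881 genes higher and 620 lower in the *sdg33* shoot response, 84 and 191 more positive and more negative than in WT, 39 and 8 than in *sdg34*, and 929 and 1147 than in roots. Against WT, a fit of 18 libraries gave 317 more positive and 611 more negative genes and sample weights, chosen after seeing the data, gave 249 and 565. Against *sdg34*, the fit of 18 libraries gave 6 and 3, and no filter on low values gave 4 more negative genes. Leaving out each library in turn gave 2097 to 2644 genes higher and 2047 to 3053 lower in the response, 52 to 266 and 87 to 554 against WT, 27 to 85 and 2 to 38 against *sdg34*, and 1416 to 2498 and 1715 to 2834 against roots. Rescaling by median of ratios gave 2778 genes higher and 2753 lower. A fit without the WT -N libraries, chosen after seeing the data, gave 3138 and 3634. The cause of these shifts was not tested.

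With the replicate number as a block, 2620 genes were higher and 2881 lower, and the differences numbered 109 and 289 against WT, 55 and 13 against *sdg34* and 1775 and 2064 against roots. The numbers were not taken to pair the libraries. Deviations of same-numbered +N and -N shoot libraries correlated between -0.0793 and 0.0528, and 1 of 9 correlated best with its own number. Shoot and root libraries of the same number were not compared in this way. The main fit of both organs took its 12 libraries as independent.

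Directions reversed for the uncalled transporter Solyc02g067790.3 (-0.0804 to 0.167 with libraries left out) and SAUR gene Solyc01g091030.3 (-0.423 to 0.11), and for the shoot-root difference of the DnaJ gene Solyc02g014860.3 (-0.0446 with a pseudocount of 10, against 2.47).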
